A study of Mus musculus with 4 samples.

Results

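The nuclear pore complex is built from about the same set of proteins, the nucleoporins, in every cell, and the transcripts of 30 nucleoporins other than Nup358 were followed here through mouse blood progenitors. Members were taken by gene symbol, and all 30 were among the 27998 genes counted. They were grouped by their place in the pore into 9 members of the Y complex, 5 of the inner ring, 3 of the central channel, 7 of the cytoplasmic face and the Nup98 group, 3 of the nuclear basket and 3 membrane nucleoporins.

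The Y complex and the inner ring form the scaffold of the pore, and Ndc1, Pom121 and Nup210 hold it in the nuclear envelope. Nucleoporins with phenylalanine and glycine repeats, such as Nup62, Nup54 and Nupl1, fill the channel and let transport receptors pass, while the cytoplasmic face releases exported RNA and the basket receives cargo on the nuclear side. New pores are needed when a nucleus grows before division and again when nuclei reform after mitosis. The gene Ranbp2 encodes Nup358, which builds the filaments on the cytoplasmic side.

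Single Lin-Sca1+cKit+ (LSK) bone marrow cells, the compartment that holds stem cells and multipotent progenitors, were counted in 4 libraries, 2 control and 2 Nup358 knockout. Control mice were Nup358 fl/fl, labelled wild-type. Knockout mice were Nup358 fl/fl and carried R26-CreERT2, a recombinase expressed in all tissues. Both genotypes received tamoxifen, so that they share the loxP alleles and the drug and differ in the recombinase, and no group carried CreERT2 without the loxP sites. The mice were adults of 9 to 12 weeks. Each library pooled 3 marrows, so p-values rest on the spread between pools and not between single mice.

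The droplet method counts 1 unique molecular identifier (UMI) for each captured transcript end. Levels are given as CPM, the UMIs of a gene scaled to a library total of 1000000 after TMM normalization. They are not scaled by transcript length, and different genes are therefore not ranked against each other. A total of 24973 of 25242 deposited barcodes passed the cell filters. Of the deposited barcodes, 10936 had at least 3 times more UMIs under the same sequence in another library. They made up 14.8% and 81.8% of the barcodes of control replicates 1 and 2 and 65.3% and 18.8% of those of knockout replicates 1 and 2. They held 1.61% to 24.6% of a library's UMIs. These copies were left out, which kept 14041 cells with 18846887 to 59033602 UMIs per library, and each main count of members is also given with them. In the same order of libraries, 7830, 1200, 1589 and 3422 cells were kept. Without TMM scaling, Kit, the receptor of the sort, was at 96.0 and 103 CPM in the controls and 89.8 and 73.3 in the knockouts. Ly6a, which encodes Sca1, was on the same scale at 133 and 190 against 317 and 218. Among the beta-globin genes, Hbb-bs was at 56.3 and 705 CPM in the controls and 2.63 and 4.36 in the knockouts, whereas Hbb-bt was at 52.1 and 309 against 164 and 219. Ranbp2 was at 126 and 104.5 CPM in the controls and 122 and 125 in the knockouts, with a log2 difference of 0.09 ± 0.15 (SE). The 3′ counts do not read exon 2, which the recombinase removes, so that this value checks nothing about the deletion.

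Cells were sorted into gates by marker lists. The gates were unprimed (no list passed), stem-like (genes such as Mecom, Hlf and Procr), neutrophil-like (Elane, Prtn3 and others), megakaryocyte- or erythrocyte-like (Gata1, Klf1 and others, written mege-like) and lymphoid-like (Il7r, Dntt and others). All 8 neutrophil markers had at least 1 UMI in the neutrophil-like cells of each library. Their summed level there was 11413 and 11255 CPM in the controls against 2997 and 2870 in the knockouts. Over all kept cells and without TMM scaling, Elane was at 1831 and 1067 CPM in the controls and 44.8 and 24.9 in the knockouts. Neutrophil-like cells of the 2 genotypes were thus unlike in these markers. Unprimed cells still held neutrophil markers, which summed to 1024 and 518 CPM in the controls and 450 and 337 in the knockouts. Stem markers summed to 1144 and 1010 in control and 810 and 795 in knockout stem-like cells. A total of 2827 cells lay within 1.5 times of the stem threshold and 2469 within 1.5 times of the neutrophil threshold, so these gates are ranges and not closed types. The lymphoid-like gate had 21 and 18 control cells, and its sums were made only where a library held at least 20.

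All 30 members were detected in each library. The rarest had 109 UMIs in its shallowest library, and the most counted had 17022 in its deepest. The median member stood at 35.5 and 32.1 CPM in the control libraries and at 44.8 and 45.3 in the knockout libraries. Tpr, a coiled-coil protein of the nuclear basket, was at 272 and 256 in the controls and 338 and 313 in the knockouts. The controls did not agree equally well for all members. Nup210, a membrane glycoprotein of the pore, was at 161 in control replicate 1 and 89.5 in control replicate 2, a gap that enclosed the knockout values of 123 and 153. Rae1, which works with Nup98 in RNA export, was within 92.9 to 98.8 in the 4 libraries.

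**Figure D1:**
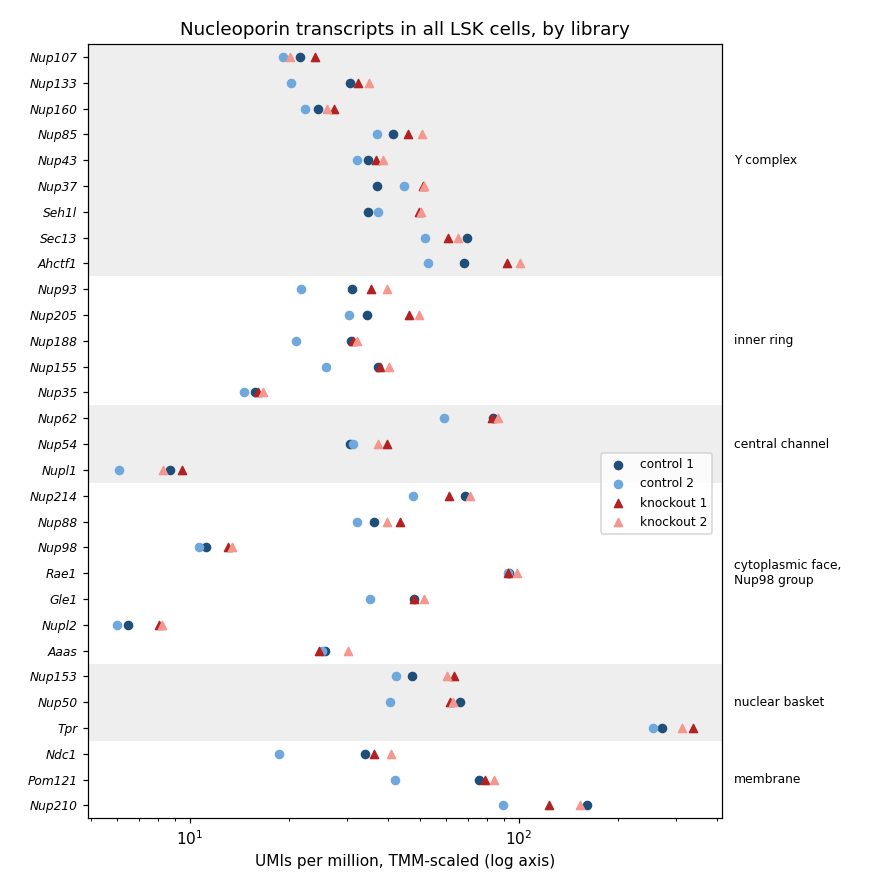
Level of each of the 30 members in all LSK cells of each library, in CPM on a log axis, with circles for control and triangles for knockout libraries and bands for the pore subcomplexes. Both knockout triangles lie to the right of both control circles for 20 members, among them Ahctf1, Nup205, Seh1l and Tpr, and control replicate 2 is the lowest library for others such as Nup210, Nup50 and Gle1.

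The first comparison asked whether the other nucleoporins change when Nup358 is deleted. Over all LSK cells, none of the 30 members passed the threshold (edgeR quasi-likelihood test, Benjamini-Hochberg adjusted p under 0.05), beside 3.44% of all genes. A total of 5 members had an unadjusted p under 0.05, beside 21.7% of all genes, and DESeq2 called 2. The log2 fold change was above 0 for all 30, with a median of 0.27 against -0.01 over all 13779 genes tested. Knockout and control libraries did not overlap for 20 members, all higher in the knockouts, where 27.3% of all genes were placed in this way.

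The smallest p values belonged to Ahctf1, Nup205 and Seh1l. Ahctf1 (chr1:179744894-179803680), also called ELYS, binds chromatin and starts pore assembly when nuclei reform. It was at 68.1 and 53.1 CPM in the controls and 92.3 and 101 in the knockouts, with a log2 fold change of 0.66 ± 0.17 (SE, adjusted p = 0.0803). Nup205, a large scaffold protein of the inner ring, was at 34.5 and 30.4 against 46.3 and 49.6 (log2 fold change 0.56 ± 0.14, adjusted p = 0.0851). Seh1l, a Y complex protein that is also part of the nutrient-sensing GATOR complex, was at 34.8 and 37.4 against 49.7 and 50.3 (0.47 ± 0.13, adjusted p = 0.108). In each of these genes the groups stood apart, but the differences missed the threshold. Exons of Ahctf1 overlap those of the counted gene Kif28 on the same strand, so its reads are less certain. Leaving out control replicate 1 gave 14 calls over all LSK cells and leaving out control replicate 2 gave 4, while the calls over all genes rose from 474 to 2890 and 1932. With 1 library left in an arm, such fits take the spread from the other arm alone. With the copied barcodes there was none in edgeR and 6 members had an unadjusted p under 0.05, beside 415 of all genes called.

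In unprimed cells the difference was clearer. A total of 5 of 30 members were higher in knockout cells and none was lower, beside 3.54% of 12613 genes called higher and 6.08% called lower. The members called were Ahctf1, Seh1l and Nup85 of the Y complex and Nup205 and Nup93 of the inner ring. With the copied barcodes the count was 7, and these 5 members passed again with smaller differences. Their log2 fold changes were 0.49 to 0.57, against 0.62 to 0.72 without the copies. The median over the 30 members was 0.29 with the copies against 0.42 without. Over all genes 970 were called with them, against 1214 without.

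Ahctf1 rose from 67.2 and 53.5 CPM in the controls to 96.8 and 101 in the knockouts, a log2 fold change of 0.72 ± 0.16 (SE) or 1.65-fold (edgeR adjusted p = 0.0285). Nup205 (chr6:35177421-35247596) rose from 32.4 and 27.4 to 46.8 and 50.2 (0.70 ± 0.16, adjusted p = 0.0304). Nup93 (chr8:94214564-94317227), which links the inner ring to the central channel, rose from 25.99 and 20.0 to 36.0 and 39.0 (0.70 ± 0.17, adjusted p = 0.0390). In these 3 genes both knockout libraries lay above both controls. Seh1l rose from 29.7 and 35.0 to 52.2 and 50.2 (0.69 ± 0.15, adjusted p = 0.0283). Nup85 (chr11:115564434-115583985), a scaffold subunit of the Y complex that binds Seh1l, rose from 33.5 and 32.1 to 47.2 and 52.9 (0.62 ± 0.15, adjusted p = 0.0369). The controls of these Y complex genes were close to each other, and the knockout values were again higher without overlap.

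Other members of unprimed cells had differences of like size that did not pass. Ndc1, which anchors the pore in the membrane, had the highest fold, with 26.6 and 15.1 against 35.4 and 41.6 CPM (log2 fold change 0.86 ± 0.25, adjusted p = 0.0577). All 30 fold changes were above 0, the median was 0.42 against 0.00 over all genes, and 18 members had an unadjusted p under 0.05, beside 29% of all genes. The groups did not overlap for 28 members, all higher in the knockouts, beside 28.2% of all genes. The remaining members were Nup210, at 147 and 90.6 against 129 and 157, and Nup214 of the cytoplasmic face, at 61.7 and 46.7 against 57.9 and 71.9.

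The median log2 fold change in unprimed cells was 0.60 for the membrane nucleoporins, 0.53 for the Y complex and 0.48 for the inner ring, and 0.38, 0.34 and 0.31 for the basket, the cytoplasmic face and the central channel. Summed over its 9 members, the Y complex was at 312 and 300 CPM in control and 426 and 444 in knockout libraries. The inner ring was at 130 and 107 against 169 and 178. The membrane group was at 240 and 148 against 244 and 284, with the higher control close to the lower knockout. These medians and sums describe the groups and carry no test. Leaving out single libraries gave 20 calls (control replicate 1), 11 (control replicate 2), 1 (knockout replicate 1) and 0 (knockout replicate 2, with 7 at an unadjusted p under 0.05), with a median of 0.35 to 0.55. In the same order 3575, 3007, 668 and 183 of all genes were called, against 1214 with all libraries.

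Stem-like cells also had higher members in the knockouts, with 3 of 30 called higher and none lower, beside 2.21% of 10716 genes called higher and 3.67% called lower. The count was again 3 with the copied barcodes, beside 670 of all genes called against 630 without them. Ndc1 (chr4:107367784-107416346) rose from 19.0 and 10.8 CPM in the controls to 35.3 and 34.6 in the knockouts (log2 fold change 1.22 ± 0.26 SE, 2.34-fold, adjusted p = 0.0310). Nup188 (chr2:30286397-30344266), an inner ring partner of Nup93, rose from 18.6 and 14.1 to 34.1 and 31.4 (0.98 ± 0.21, adjusted p = 0.0341). Nup205 rose from 28.4 and 23.2 to 43.0 and 47.8 (0.80 ± 0.19, adjusted p = 0.0444). The 2 knockout libraries were close to each other for each gene and lay well above the controls. Exons of Nup188 overlap those of the counted gene Gm28038.

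The remaining stem-like members had log2 fold changes from 0.11 to 1.07, and 17 of all 30 had an unadjusted p under 0.05, beside 26.2% of all genes. The median over the 30 was 0.56 against 0.00 over all genes. Gle1, which activates a helicase in RNA export, and Nup98 overlapped between the genotypes, and the other 28 members were higher in both knockout libraries, beside 29.8% of all genes. Gle1 was at 47.8 and 32.6 against 42.1 and 47.0. Leaving out single libraries gave 19 calls (control replicate 1), 7 (control replicate 2), 2 (knockout replicate 1) and 0 (knockout replicate 2, with 6 at an unadjusted p under 0.05), beside 2906, 1581, 348 and 154 of all genes against 630 with all libraries. DESeq2 called only Ndc1.

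**Figure D2:**
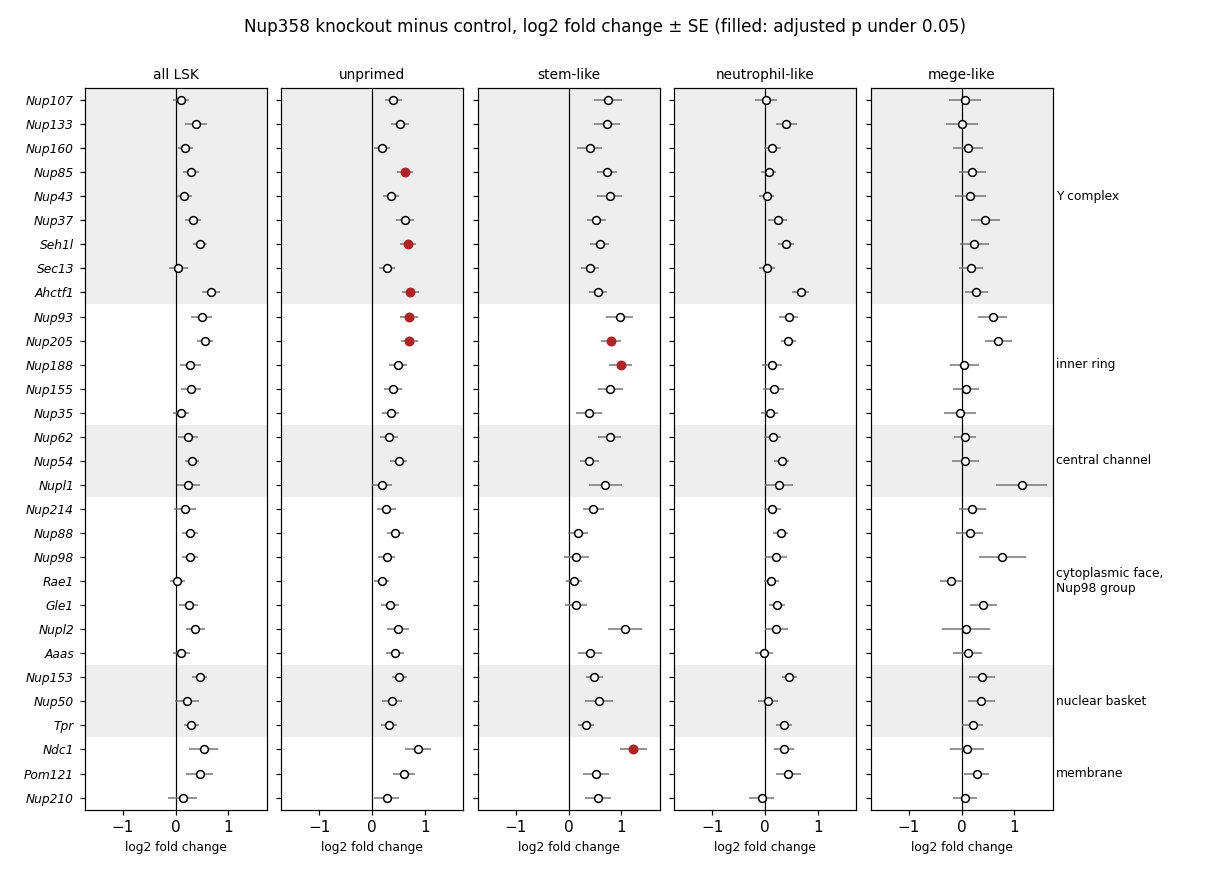
Knockout minus control log2 fold change with its SE for each member in all LSK cells and in 4 gates, with filled points for an adjusted p under 0.05 (edgeR). Points lie to the right of 0 for all 30 members in all LSK, unprimed and stem-like cells, and the filled points are 5 in unprimed and 3 in stem-like cells.

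Neutrophil-like cells had smaller differences. None of the 30 members was called in edgeR, beside 4.14% of 11321 genes. A total of 6 had an unadjusted p under 0.05, beside 20.9% of all genes, and DESeq2 called 1. The median log2 fold change was 0.21. Ahctf1 was at 67.3 and 51.5 CPM in the controls and 88.2 and 101 in the knockouts (0.67 ± 0.17, adjusted p = 0.0680). Nup153 of the basket was at 49.9 and 44.2 against 64.1 and 64.4 (0.45 ± 0.14, adjusted p = 0.120), and Nup205 at 37.8 and 38.9 against 51.0 and 52.1 (0.44 ± 0.14, adjusted p = 0.127). These 3 were among 15 members whose groups did not overlap, beside 24.7% of all genes, while members such as Aaas, at 30.5 and 34.6 against 28.4 and 35.3, were interleaved. Without control replicate 1 the count was 6, beside 1425 of all genes against 469, and with the copied barcodes it was 0 in edgeR, with 6 at an unadjusted p under 0.05.

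The mege-like gate held 331 and 39 control cells and 44 and 123 knockout cells. Without TMM scaling, its markers summed to 3499 and 3389 CPM in the controls against 2130 and 2724 in the knockouts. The gate was not matched to cell clusters of the study. In mege-like cells none of 30 members was called in edgeR, beside 1.16% of 9076 genes. A total of 2 had an unadjusted p under 0.05, beside 10.1% of all genes, and DESeq2 called none. The groups did not overlap for 10 members that were higher in the knockouts, beside 20.9% of all genes, and for Rae1, which was lower, beside 19.7%. Nup205 had the smallest p, with 30.6 and 33.5 CPM in the controls and 52.7 and 50.5 in the knockouts (log2 fold change 0.70 ± 0.26, adjusted p = 0.289). It was followed by Nupl1 of the central channel (1.14 ± 0.48, adjusted p = 0.407) and Nup93 (0.58 ± 0.28, adjusted p = 0.496). Nupl1 stood at 1.86 CPM in control replicate 2, whose gate held 39 cells. Its exons overlap those of the counted gene Atp8a2 on the same strand. Lymphoid-like cells had 1 control library with 21 cells, and none of 29 members tested was called in edgeR, beside 0.0234% of 8535 genes. Here 2 had an unadjusted p under 0.05, beside 8.42% of all genes, and DESeq2 called none. Nup107 was not found in that control library, so no fold is given for it. With the copied barcodes edgeR called none in either gate, with 2 mege-like and 1 lymphoid-like member at an unadjusted p under 0.05. Over all genes these fits called 51 and 25, against 105 and 2 without the copies.

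Whether the genotype difference itself varied between gates was tested in a joint fit. Against unprimed cells, the difference was smaller in neutrophil-like cells for 6 members, and larger for none, beside 6.45% of 12365 genes called lower and 3.16% higher. Nup85 differed by -0.52 ± 0.10 on the log2 scale (adjusted p = 0.00223), Ndc1 by -0.47 ± 0.13 (adjusted p = 0.0234) and Aaas, a membrane-bound protein of the cytoplasmic face, by -0.44 ± 0.12 (adjusted p = 0.0217). Nup188 differed by -0.38 ± 0.11 (adjusted p = 0.0268) and Nup37 by -0.38 ± 0.11 (adjusted p = 0.0302), and Nup50 followed at -0.34. In edgeR no member was called for the stem-like gate (0.0323% of all genes called), the mege-like gate (0.849%) or the lymphoid-like gate (0.113%). At an unadjusted p under 0.05 there were 5, 6 and 4 members, beside 8.35%, 12% and 6.02% of all genes. DESeq2 gave no adjusted p for 63 of the 120 member terms over the gates, so these could not be called. Over the gates DESeq2 called 2 interactions, and leaving out control replicate 1 or knockout replicate 1 gave 1, and control replicate 2 or knockout replicate 2 none, with 474 to 579 interactions called over all genes against 1312 with all libraries. With the copied barcodes none of the 6 passed (11 interactions had an unadjusted p under 0.05, and 370 were called over all genes), and adjusted p ranged from 0.104 for Nup85 to 0.794 for Nup50.

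Cycling moved with genotype in unprimed and stem-like cells, the gates where members were called for the knockout. The share of a cell's UMIs from 31 G2/M genes had a median of 0.111% and 0.0848% in control unprimed cells and 0.321% and 0.389% in knockout unprimed cells. In stem-like cells it was 0.0699% and 0.0484% against 0.184% and 0.282%. Neutrophil-like cells overlapped, at 0.420% and 0.219% against 0.379% and 0.409%. Cell depth moved as well, with median UMIs of 4334 and 12751 in control and 17310 and 14693 in knockout unprimed cells.

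The comparison was therefore repeated in cells of low cycling, a choice made after the data were seen. When the lowest cells of each library were taken, 13 members were higher in unprimed knockout cells, beside 1556 of all genes called in either direction, and the median was 0.75. The ranking was within each library, however, and low cells still differed in the G2/M share, at 0.0549% and 0.0420% in the controls and 0.105% and 0.209% in the knockouts. These shares are over low cells of all gates and not of unprimed cells alone. When 1 fixed limit of 0.2% for both cycling lists was used, the median G2/M share of unprimed cells was 0.0368% and 0.05% in the controls and 0.0504% and 0.0343% in the knockouts. There the median of the members was 0.39 against 0.01 over all genes. None of the 30 was called in 1252 and 244 control cells and 88 and 98 knockout cells, 4 had an unadjusted p under 0.05, and 602 of all genes were called. No DESeq2 fit of these cells was made. Ahctf1 had a log2 fold change of 0.69 (adjusted p = 0.112), Nup205 of 0.59 (0.403 after adjustment) and Seh1l of -0.23 (0.788 after adjustment). How much of the rise in unprimed cells goes with cycling was not tested beyond these values.

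Promoter sequences are shown for Nup205 and Nup188, the inner ring members called in stem-like cells, because both hold letters read by YY1, a factor that binds at the start site of many genes. The windows are RefSeq sequence of build GRCm38.p6, from 250 bases before to 50 after the annotated start, 5′ to 3′ on the gene's strand, and capitals mark the YY1 letters, which were searched exactly as they stand there, on both strands. Of 26 members with a window in the table, 4 held them (Nup188, Nup205, Nup50 and Nup88), in 4 of 29 windows, as did 0.633% of all 32851 promoters. Nup50 and Nup88 were not called for the knockout, and Ndc1, also called in stem-like cells, did not hold them. Ahctf1 and Nup93, called in unprimed cells, did not hold them either, and Nup85 and Seh1l have no window in the table. In Nup205 the match began 13 bases after the start and in Nup188 20 bases after it.
Nup205, chr6:35177366-35177665, plus strand: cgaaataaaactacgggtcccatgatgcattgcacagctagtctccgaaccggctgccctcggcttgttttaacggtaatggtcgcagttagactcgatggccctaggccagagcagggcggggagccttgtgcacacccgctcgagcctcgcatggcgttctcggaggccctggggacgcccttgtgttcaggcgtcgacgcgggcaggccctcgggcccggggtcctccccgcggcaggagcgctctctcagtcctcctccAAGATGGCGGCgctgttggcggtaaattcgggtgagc
Nup188, chr2:30286166-30286465, plus strand: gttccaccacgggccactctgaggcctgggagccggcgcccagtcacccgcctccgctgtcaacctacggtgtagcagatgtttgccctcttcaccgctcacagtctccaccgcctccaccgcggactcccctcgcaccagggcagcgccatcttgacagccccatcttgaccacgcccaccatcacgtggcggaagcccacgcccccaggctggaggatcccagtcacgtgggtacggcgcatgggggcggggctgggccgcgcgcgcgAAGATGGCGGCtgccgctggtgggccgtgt

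Matches of E2F letters (TTTCCCGC, TTTGGCGC, TTTCGCGC or TTTGCCGC, either strand) were in Nup210 alone, beside 2.27% of all promoters. The letters CCAAT were in 10 of the 26 members, beside 37.4% of all promoters. A match describes letters in the window and not the binding of a factor.

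The next comparison set the progenitor gates against unprimed cells of the same library. Cell depth differed between gates, with median UMIs of 4334, 12751, 17310 and 14693 in unprimed cells of the 2 control and 2 knockout libraries. In the same order they were 3996, 9797, 14821 and 11148 in stem-like and 9703, 21537, 25424 and 21073 in neutrophil-like cells. Mege-like cells had 5595, 11644, 18572.5 and 18627. How far depth bears on the gate differences was not tested. Stem-like cells had lower nucleoporin transcripts, with 8 of 30 members lower and none higher, beside 9.3% of 11361 genes called lower and 8.8% called higher. With the copied barcodes 12 were lower, beside 2616 of all genes called in either direction against 2057 without them. The median over all members was -0.16 against 0.00 over all genes, and 19 were lower in each of the 4 libraries, beside 25.2% of all genes. Of the 8, 5 belonged to the Y complex (Nup37, Sec13, Nup43, Nup133 and Nup85).

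Aaas had the largest fall, from 20.4, 23.0, 25.3 and 32.1 CPM in unprimed cells of the 2 control and 2 knockout libraries to 15.7, 14.1, 17.8 and 21.9 in stem-like cells (log2 fold change -0.52 ± 0.12, adjusted p = 0.00544). Nup43, a beta-propeller protein of the Y complex, fell from 29.8, 31.1, 36.5 and 40.4 to 21.5, 13.8, 29.0 and 31.8 (-0.48 ± 0.13, adjusted p = 0.0160). Nup37, another propeller of that complex, fell from 29.2, 39.9, 50.3 and 53.9 to 25.5, 25.2, 39.0 and 35.0 (-0.47 ± 0.10, adjusted p = 0.00407). Each of these genes was lower in the stem-like cells of every library. Nup93 (-0.39 ± 0.12, adjusted p = 0.0341) and Nup85 (-0.38 ± 0.12, adjusted p = 0.0291) followed. Among cells of the low cycling state Aaas alone was called, beside 777 of all genes. The count was 13 with the minimum marker share doubled, beside 3335 of all genes. It was 0 in edgeR with the share cut to 1 part in 2 (3 at an unadjusted p under 0.05), beside 638. It was 3 without control replicate 1 or knockout replicate 1, 5 without control replicate 2 and 4 without knockout replicate 2, where 967 to 1180 of all genes were called against 2057 with all libraries.

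Neutrophil-like cells stood on the other side, with 16 of 30 members higher than in unprimed cells and none lower, beside 20.8% of all genes called higher and 20.7% lower. The count was 12 with the copied barcodes, beside 4518 of all genes called against 4718 without them. The median was 0.24, and 22 members were higher in each of the 4 libraries, beside 29.1% of all genes. The Y complex supplied 7 of the 16 members, the inner ring 3, and the basket none.

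Nup107 (chr10:117750621-117792705), a core subunit of the Y complex, had the largest difference, with 26.3, 29.5, 32.7 and 22.6 CPM in neutrophil-like cells and 16.6, 15.7, 22.4 and 20.3 in unprimed cells (log2 fold change 0.57 ± 0.12, adjusted p = 0.00117). Ndc1 was higher by 0.45 ± 0.12 (adjusted p = 0.00623), Nup37 by 0.44 ± 0.09 (adjusted p = 0.000473) and Sec13, a subunit shared with the COPII vesicle coat, by 0.43 ± 0.07 (adjusted p = 0.000134). Nup35, an inner ring protein that binds membranes, was higher by 0.41 ± 0.09 (adjusted p = 0.00130). The median member difference was 0.38 and 0.30 in the controls and 0.12 and 0.12 in the knockouts. In low cycling cells 11 members were called, beside 2711 of all genes. Without control replicate 1 the count was 5, beside 2524 of all genes, and without control replicate 2 it was 9, beside 3436, against 4718 with all libraries.

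Mege-like cells had 6 members higher and none lower, beside 11.5% of all genes called higher and 14% lower. With the copied barcodes the count was 6, beside 2894 of all genes called against 2892. Nup35 was at 23.6, 16.7, 20.5 and 21.9 CPM against 12.4, 13.0, 15.5 and 16.6 in unprimed cells (log2 fold change 0.58 ± 0.13, adjusted p = 0.00247). Nup93 (0.50 ± 0.14, adjusted p = 0.0104), Ahctf1 (0.47 ± 0.10, adjusted p = 0.00159), Nup54 (0.46 ± 0.11, adjusted p = 0.00409) and Nup50 (0.38 ± 0.11, adjusted p = 0.0158) followed, as did Pom121 at 0.33 ± 0.08 (adjusted p = 0.00326). A total of 12 members were higher in each library, beside 19.1% of all genes, and 1 was lower, beside 22.4%. Nup210 was the member that lay lower throughout, without passing the threshold (-0.31 ± 0.13, adjusted p = 0.0799). Without control replicate 1 no member was called in edgeR, with 8 at an unadjusted p under 0.05 and 1714 of all genes called against 2892, and DESeq2 called 8 on all 4 libraries. Exons of Nup35 overlap those of the counted gene Dusp19.

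In lymphoid-like cells 1 member was called, beside 9.08% of all genes higher and 10.4% lower. It was Nup160 of the Y complex, at 13.7, 43.4 and 38.4 CPM in the 3 libraries with enough cells and 23.9, 27.4 and 25.6 in their unprimed cells (log2 fold change 0.54 ± 0.15, adjusted p = 0.0148). It was lower in the control and higher in both knockout libraries. Without knockout replicate 1 the adjusted p was 0.127, and without knockout replicate 2 it was 0.341. Among low cycling cells the sign turned (-0.46, adjusted p = 0.608). Nup160 was again the 1 member called with the copied barcodes (0.58, edgeR adjusted p = 0.00385), beside 2479 of all genes against 2217 without them.

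**Figure D3:**
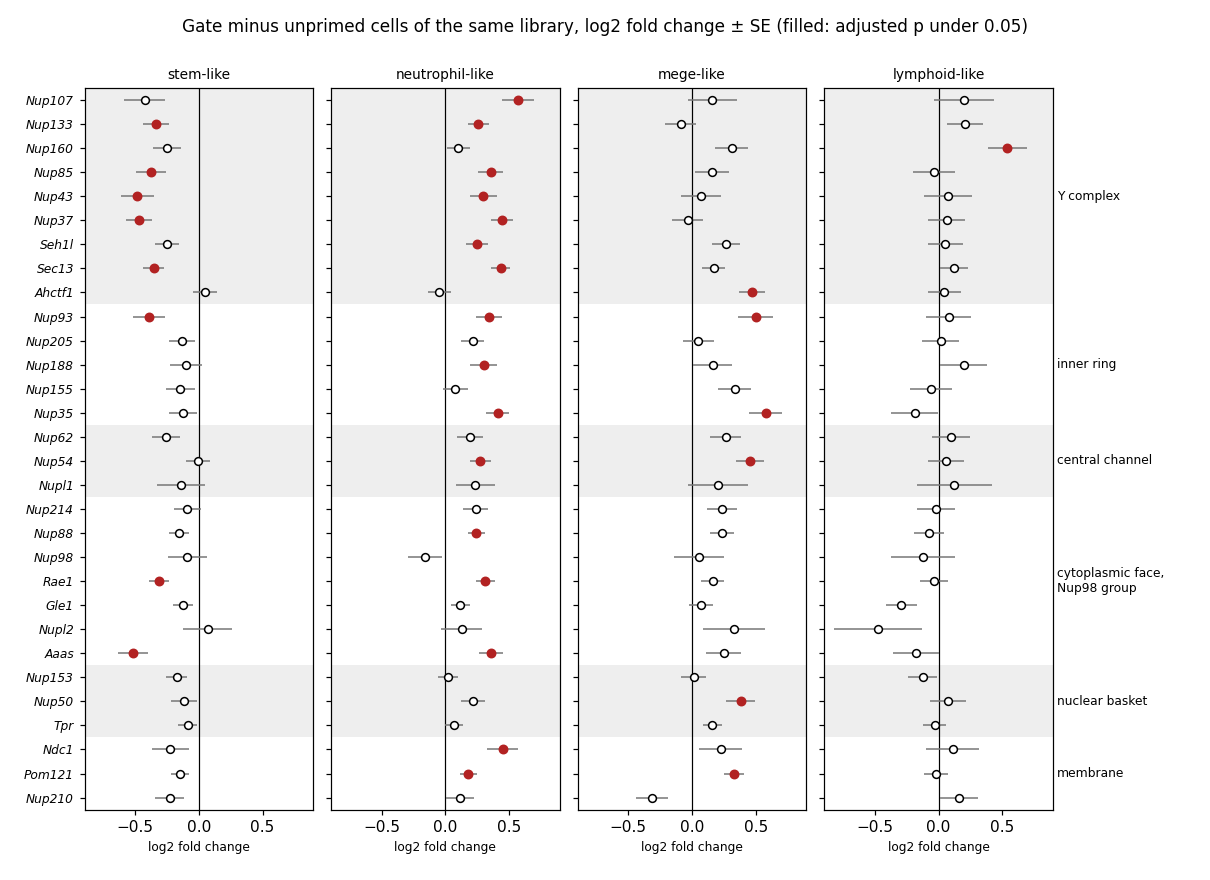
Gate minus unprimed log2 fold change with its SE for each member, fitted within libraries, with filled points for an adjusted p under 0.05 (edgeR). The filled points are 8 to the left of 0 in stem-like cells, 16 to the right in neutrophil-like, 6 to the right in mege-like and 1 in lymphoid-like cells.

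Cycling state was then compared within each library, with cells ranked by 28 S genes and 31 G2/M genes, none of them a member. In S cells 13 of 30 members were higher than in low cells and none was lower, beside 9.93% of 12460 genes called higher and 8.89% lower. All 30 fold changes were above 0, with a median of 0.42 against -0.01 over all genes, and 22 members were higher in each library, beside 19.1% of all genes. Cell depth rose with the state, from median UMIs of 3620 to 11754 in low cells to 6671 to 19364 in S cells.

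Nup85 changed most, from 23.1, 11.2, 30.9 and 44.8 CPM in low cells to 56.9, 60.3, 60.7 and 62.8 in S cells of the same libraries (log2 fold change 1.17 ± 0.25, adjusted p = 0.0161). Its S values were close across the libraries and its low values were not. Nup107 was higher by 0.97 ± 0.26 (adjusted p = 0.0293), Nup133 by 0.87 ± 0.17 (adjusted p = 0.0132) and Nup43 by 0.83 ± 0.20 (adjusted p = 0.0234). Nup155 (chr15:8109273-8161247), an inner ring protein at the membrane, rose from 24.4, 13.1, 30.3 and 36.9 to 48.0, 36.9, 49.7 and 46.0 (0.81 ± 0.17, adjusted p = 0.0141). Of the 13, 5 belonged to the Y complex and 4 to the inner ring, and the membrane group had none. The count was 18 with the copied barcodes, 5 after each cell was thinned to 2000 UMIs before scoring, and 0 in edgeR without control replicate 1 (10 at an unadjusted p under 0.05) or without knockout replicate 1 (20). Over all genes these last fits called 24 and 0, against 2345 with all libraries.

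In G2/M cells 10 members were higher than in low cells and none was lower, beside 7.56% of all genes called higher and 7.99% lower. Nup35 (chr2:80617236-80658906) had the largest fold, from 7.62, 8.11, 9.75 and 13.0 CPM in low cells to 24.96, 24.4, 23.5 and 22.2 (log2 fold change 1.30 ± 0.15, adjusted p = 0.00131). Its S values of 12.9, 15.9, 14.7 and 13.3 lay between. Nup37 (chr10:88146992-88178390) rose from 18.0, 20.2, 33.4 and 41.8 to 49.6, 73.4, 64.2 and 61.4 (1.15 ± 0.19, adjusted p = 0.00555). Both were higher in the G2/M cells of every library, and Nup35 was called in each of 11 alternatives. Ndc1 was higher by 0.94 ± 0.27 (adjusted p = 0.0442), Nup107 by 0.91 ± 0.25 (adjusted p = 0.0390) and Nup133 by 0.82 ± 0.17 (adjusted p = 0.0146). The median over all members was 0.38, and 18 were higher in each library, beside 17.7% of all genes. Nup153 was the nearest to no difference, at 42.6, 32.5, 64.5 and 58.6 in low and 40.2, 43.0, 60.3 and 52.1 in G2/M cells, and was among the 13 members called in S cells. The count was 18 with the copied barcodes, 1 without control replicate 1 and 2 without knockout replicate 1, beside 2897, 241 and 385 of all genes against 1938.

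The promoter of Nup37 is shown because the letters TTTGAA, the core of the cell cycle homology region that many genes of G2 and mitosis carry, begin in it 69 bases before the start and, on the other strand, 47 bases before it (capitals). Another annotated start of Nup37 has its own window, not shown, where these matches begin 148 and 126 bases before that start. They were found in 6 of 26 members with a window (Ndc1, Nup37, Nup98, Pom121, Sec13 and Tpr), in 7 of 29 windows, and in 17.9% of all promoters. Nup35 has no window in the table.
Nup37, chr10:88146742-88147041, plus strand: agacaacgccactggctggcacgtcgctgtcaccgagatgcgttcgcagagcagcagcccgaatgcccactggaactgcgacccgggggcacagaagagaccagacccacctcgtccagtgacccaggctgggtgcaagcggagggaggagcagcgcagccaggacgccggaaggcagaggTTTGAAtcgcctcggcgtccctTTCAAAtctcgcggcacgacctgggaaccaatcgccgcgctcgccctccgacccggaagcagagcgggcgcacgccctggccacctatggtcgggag

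**Figure D4:**
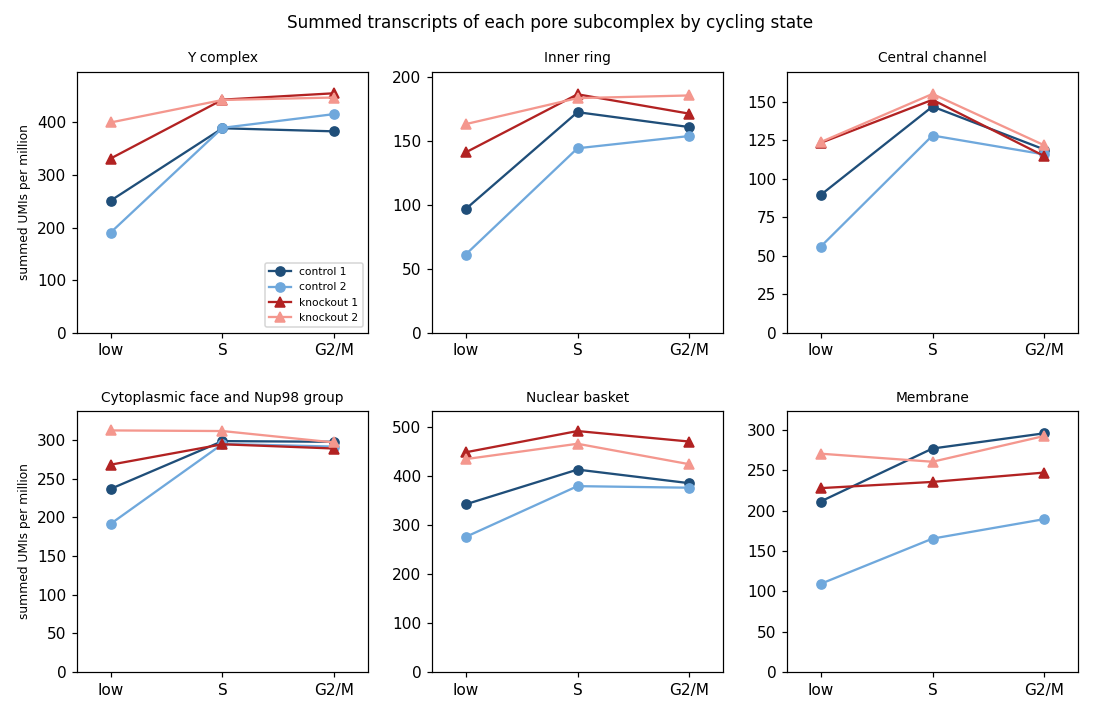
Summed level of each pore subcomplex in CPM (vertical axis from 0) in low, S and G2/M cells, with a line for each library. Control lines rise from the low state in every panel, the Y complex from 251 and 190 to 389 and 390 in S cells, while its knockout lines start higher, at 331 and 400, and reach 443 in both libraries.

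State and genotype were tested together. The S minus low difference was smaller in knockout than in control cells for 7 members and larger for none, beside 9.75% of all genes called lower and 4.52% higher. For G2/M minus low, 9 members were called with a smaller difference in the knockouts, beside 8.75% of all genes called lower and 5.89% higher. Ndc1 was at 14.9 and 6.03 CPM in low control cells and 27.6 and 36.8 in low knockout cells, but at 39.0 and 31.9 against 38.4 and 42.1 in G2/M cells. Its interaction was -1.36 ± 0.26 on the log2 scale (adjusted p = 0.0128). Aaas was at 14.2 and 9.57 against 18.9 and 29.4 in low cells and at 28.7 and 37.7 against 23.9 and 28.2 in G2/M cells (-1.24 ± 0.26, adjusted p = 0.0164). Nup93 was at 16.7 and 9.78 against 29.2 and 35.4 in low cells and at 33.2 and 29.8 against 34.4 and 40.2 in G2/M cells (-0.98 ± 0.18, adjusted p = 0.0123). In these 3 genes the knockouts lay above the controls in the low state. In G2/M cells they were still above for Nup93, overlapped for Ndc1 and lay below for Aaas. Nup37 (-0.89 ± 0.19, adjusted p = 0.0167) and Nup62 (-0.86 ± 0.23, adjusted p = 0.0395) followed. Exons of Nup62 overlap those of the counted gene Il4i1 on the same strand. For S cells the terms of largest size were Ndc1 (-1.14 ± 0.26, adjusted p = 0.0225), Aaas (-1.12 ± 0.26, adjusted p = 0.0241), Nup93 (-1.04 ± 0.18, adjusted p = 0.0135), Nup37 (-0.92 ± 0.19, adjusted p = 0.0177) and Nup188 (-0.70 ± 0.19, adjusted p = 0.0387). All 30 interaction terms were below 0 in each test. Median member differences for S minus low were 0.49 and 0.83 in the controls and 0.24 and 0.10 in the knockouts.

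Low cells of the knockouts had larger cycling shares than those of the controls, as given above, since cells were ranked within libraries. With 1 fixed limit for all libraries, 28 members were called for S and 27 for G2/M against low cells, with medians of 0.81 and 0.78. Calls over all genes rose as well, to 6395 and 6522 from 2345 and 1938. Only 1 interaction of a member was then called, in the opposite direction, beside 3006 over all genes and both tests. Ndc1 changed sign, to 0.46 for S and 0.23 for G2/M, and so did Nup37, to 0.28 and 0.34. The other terms called above kept their sign and lost the call, and the median over both tests was -0.10. Ranked limits and the copied barcodes together gave 32 called terms, beside 4829 over all genes. With limits ranked within libraries, leaving out 1 library gave 34 calls over both tests (control replicate 1), 8 (control replicate 2), 2 (knockout replicate 1) and 0 (knockout replicate 2, with 16 at an unadjusted p under 0.05). In the same order 4804, 1862, 382 and 11 terms were called over all genes, against 3602 with all libraries.

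**Figure D5:**
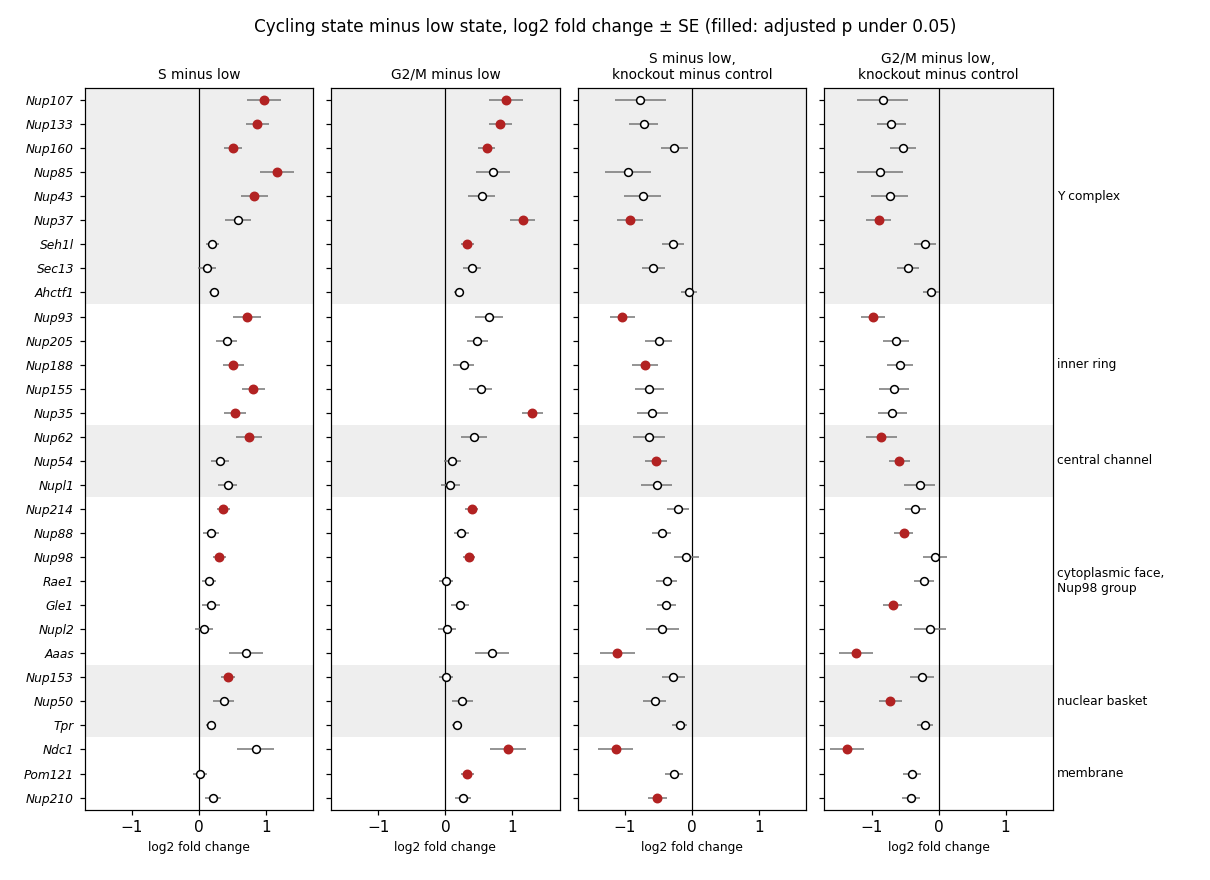
Log2 fold changes with SE of S and G2/M cells against low cells (the 2 panels on the left) and the knockout minus control difference of these changes (the 2 panels on the right), for each member, with filled points for an adjusted p under 0.05 (edgeR). All points lie to the right of 0 in the 2 left panels and to the left in the others.

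Cargo that crosses the pore is carried by importins and exportins and released through the Ran cycle, and 32 genes of this pathway were followed beside the pore. In unprimed knockout cells 11 were higher and none was lower, and in stem-like cells 9 were higher and none was lower, beside the 3.54% and 2.21% of all genes called higher there. All counts of transport genes are from the main fits, and the alternatives were not evaluated for them. Rcc1, which loads Ran with GTP on chromatin, was higher by 1.00 ± 0.15 on the log2 scale in unprimed cells (adjusted p = 0.00973), Kpnb1, which encodes importin beta, by 1.12 ± 0.17 (adjusted p = 0.0101) and Cse1l, which returns importin alpha to the cytoplasm, by 0.76 ± 0.14 (adjusted p = 0.0166). In stem-like cells Rcc1, Kpnb1 and Cse1l were higher by 1.23 ± 0.22, 1.09 ± 0.19 and 0.93 ± 0.17 (adjusted p = 0.0183, 0.0192 and 0.0193). The medians of the transport genes were 0.54 and 0.59 in these gates, and those of the nucleoporins 0.42 and 0.56.

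Over all LSK cells none of the 32 was called in edgeR (3.44% of all genes), with 17 at an unadjusted p under 0.05 (21.7% of all genes). In neutrophil-like cells, beside 4.14% of all genes called, 4 were higher, led by Kpnb1 (0.90 ± 0.16, adjusted p = 0.0262), and in mege-like cells, beside 1.16%, Kpnb1 alone was (0.95 ± 0.22, adjusted p = 0.0395). Against unprimed cells, 5 transport genes were lower in stem-like cells (9.3% of all genes), with Ran, the GTPase itself, at -0.45 ± 0.09 (adjusted p = 0.00148), and 9 were higher and 1 lower in neutrophil-like cells (20.8% and 20.7% of all genes), with Rcc1 at 0.63 ± 0.11 (adjusted p = 0.000193). In mege-like cells 6 were higher and 1 was lower (11.5% and 14% of all genes). In S cells 9 were higher and 2 lower (9.93% and 8.89% of all genes), with Ipo9 at 0.67 ± 0.10 (adjusted p = 0.00697), and in G2/M cells 3 were higher (7.56% of all genes), led by Kpna2, an importin alpha, at 2.74 ± 0.25 (adjusted p = 0.000321). The S minus low difference was smaller in the knockouts for 7 transport genes (9.75% of all genes), and that of G2/M for 7 (8.75%), with none larger. For the neutrophil-like gate the genotype term was lower for 4 and higher for 1 (6.45% and 3.16%).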

How the data were processed

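Per the labels and the study's methods, the authors sorted LSK cells, built 3′ droplet libraries and counted UMIs with Cell Ranger 3.1 against the mm10 build. The deposited values are raw UMI counts per gene and barcode, not normalized. The annotation release was not given in the sources used here. Such counts depend on capture depth and on reads near transcript ends.

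A barcode was used if 200 or more genes were detected and mitochondrial transcripts made up no more than 10% of its UMIs. Barcodes with at least 3 times more UMIs under the same sequence in another library were left out. Cells needed at least 3 markers and 0.1% of UMIs from a list (0.05% for the stem list) to enter a gate. Cells passing more than 1 of the neutrophil, mege and lymphoid lists were set apart. So were cells passing a list of mature B, plasmacytoid dendritic, T or NK, or basophil or mast cell genes. Cells passing the stem list and otherwise only 1 of the neutrophil, mege and lymphoid lists entered the gate of the latter. Doublets were not removed otherwise. Among cells with at least 1000 UMIs, the top 20% by G2/M list, the top 20% by S list and the lowest 40% in each library formed the cycling states. UMIs were summed per library and group where at least 20 cells were present, and the sums of 2 control and 2 knockout libraries were tested across all genes with edgeR 4.0.16 (filterByExpr, TMM, quasi-likelihood test, Benjamini-Hochberg adjustment, threshold 0.05) in R 4.3.3. Comparisons within libraries carried the library as a term. Each SE was derived from the test, as the absolute log2 fold change divided by the square root of its F statistic. DESeq2 1.42.0, other filters and gates, and leaving out each library were alternatives. Positions came from GENCODE M21, which matched 27722 of 27998 gene identifiers. Any member could be named. Full statistics were given for the 5 called members of largest log2 fold change in a comparison, or the 3 of smallest p where none was called, and values of up to 3 called transport genes of smallest p. Members and lists were chosen with earlier results of these data known.

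On simulated counts with 2-fold changes, the test found 51.8% of changed genes over all LSK cells with 7.27% false calls, and in unprimed cells 75.5% with 12.4% false calls, which is above the nominal 5%. The median member differences in these cells were smaller, at 0.27 and 0.42 on the log2 scale, so the percentages found do not carry over to them. Neither the labels nor the study state whether replicate numbers pair the libraries. The deviations of control and knockout replicates from their group means had a correlation of -0.0572 over 13779 genes. This 1 value does not settle whether they share a batch.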

Additional observations from a re-analysis of the deposited data

Results flagged for a closer look

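Members are listed here where the knockout minus control difference varied between groups of cells, by an interaction term in edgeR with an adjusted p under 0.05. Values are log2 differences, and no cause was tested.

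Between neutrophil-like and unprimed cells the genotype difference was smaller in the former by -0.52 for Nup85, -0.47 for Ndc1, -0.44 for Aaas, -0.38 for Nup188, -0.38 for Nup37 and -0.34 for Nup50. None of these passed when the copied barcodes were kept.

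Between S and low cells it was smaller in S cells by -1.14 for Ndc1, -1.12 for Aaas, -1.04 for Nup93, -0.92 for Nup37, -0.70 for Nup188, -0.54 for Nup54 and -0.52 for Nup210.

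Between G2/M and low cells it was smaller in G2/M cells by -1.36 for Ndc1, -1.24 for Aaas, -0.98 for Nup93, -0.89 for Nup37, -0.86 for Nup62, -0.72 for Nup50, -0.69 for Gle1, -0.59 for Nup54 and -0.52 for Nup88. With fixed limits for the cycling shares, none of the terms listed for S or G2/M cells was called. Ndc1 and Nup37 changed sign there in both tests.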

How the results depend on the processing

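Counts are of members called. Where the copied barcodes were kept, G2/M against low gave 18, genotype by gate 0 (edgeR, 11 at an unadjusted p under 0.05) and genotype by state 32. Over all genes these fits called 2897, 370 and 4829, against 1938, 1312 and 3602 in the main fits. S against low gave 18 with these barcodes, beside 3053 over all genes against 2345. The knockout in neutrophil-like cells gave 0 with them in edgeR (6 at an unadjusted p under 0.05), beside 551 over all genes against 469. DESeq2 gave 2 over all LSK cells, 1 in stem-like and 1 in neutrophil-like cells for the knockout, and 2 for genotype by gate. Its calls over all genes were 946, 427, 512 and 772, against 474, 630, 469 and 1312. For genotype by gate it gave no adjusted p for 63 of the 120 member terms. Without a filter on low counts the knockout counts were 3 over all LSK cells, 11 in unprimed, 15 in stem-like and 1 in neutrophil-like cells, and genotype by state gave 30. Calls over all genes rose as well, to 1933, 2326, 1745, 1426 and 4362 from 474, 1214, 630, 469 and 3602. The replicate block was fitted although no pairing of the libraries is stated. With it the knockout counts were 1 over all LSK cells, 8 in unprimed, 2 in stem-like and 1 in neutrophil-like cells. Over all genes it called 1257, 1301, 609 and 770. With the gate share doubled, the knockout gave 3 in unprimed and 0 in stem-like cells (edgeR, 10 at an unadjusted p under 0.05), the stem-like gate 13, the mege-like gate 11 and genotype by gate 0 (14). In the same order 1006, 244, 3335, 3114 and 359 were called over all genes, against 1214, 630, 2057, 2892 and 1312. With the gate share cut to 1 part in 2, the counts were 2, 12 and 1 for the knockout in unprimed, stem-like and neutrophil-like cells and 0 for the stem-like gate (3). Over all genes there were 532, 1397, 686 and 638 calls, against 1214, 630, 469 and 2057.

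In low cycling cells alone the knockout gave 13, 6 and 1 in unprimed, stem-like and neutrophil-like cells, the stem-like gate 1, the mege-like gate 0 (edgeR, 7 at an unadjusted p under 0.05) and genotype by gate 0 (2), and Nup160 in the lymphoid-like gate turned to -0.46. For these counts, calls over all genes were 1556, 905, 314, 777, 657 and 39, against 1214, 630, 469, 2057, 2892 and 1312. In unprimed cells alone G2/M gave 6 and genotype by state 35, beside 1323 and 4153 over all genes against 1938 and 3602. Thinning to 2000 UMIs gave 5 for S and 5 for genotype by state, beside 1202 and 878 over all genes against 2345 and 3602. Fixed cycling shares gave 28 for S, 27 for G2/M and 1 for genotype by state, with Ndc1 at 0.46 (S) and 0.23 (G2/M) and Nup37 at 0.28 and 0.34. Over all genes the fixed shares gave 6395, 6522 and 3006 calls. In unprimed cells below both fixed shares the knockout count was 0 (edgeR, 4 at an unadjusted p under 0.05), beside 602 of all genes, and Seh1l turned to -0.23. The knockout runs on low cycling cells and the alternatives for the interactions were chosen after seeing the data.

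Leaving out 1 library gave knockout counts of 0 to 14 over all LSK cells, 0 to 20 in unprimed, 0 to 19 in stem-like and 0 to 6 in neutrophil-like cells. The gates gave 3 to 5 (stem-like), 5 to 14 (neutrophil-like), 0 to 6 (mege-like) and 0 to 1 (lymphoid-like). S gave 0 to 17, G2/M 1 to 15, genotype by gate 0 to 1 and genotype by state 0 to 34. Causes of these shifts were not tested. For lymphoid-like cells the replicate block, the doubled share and leaving out the other libraries could not be fitted for the knockout. Of the values for single members under the alternatives, 601 kept direction and call, 330 kept direction only and 6 reversed.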
